A study of Xenopus laevis with 15 samples.

Results

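Of 45099 gene models measured by RNA sequencing in whole Xenopus laevis embryos, 154 without a gene symbol moved at 1 µM of the compound NRX204647 while their mean level at 10 nM stayed near that of vehicle embryos. In 114 of them transcripts were higher at 1 µM and in 40 they were lower. The groups were vehicle (0.1% EtOH), 10 nM and 1 µM NRX204647, each with 5 libraries. All embryos came from eggs fertilized in vitro and from a single clutch, with no genetic change named, and were exposed from stage 6 until harvest at stage 18, in the neurula period. Per the labels, the low dose is specific for retinoic acid receptor gamma and the high dose also activates the alpha and beta receptors. Each library was a pool of 5 embryos, and a dish of 25 embryos gave 5 such pools, which were the replicates. Treatment and dish therefore cannot be told apart, and every spread or p-value given here measures only the spread between pools of embryos.

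Retinoic acid receptors are nuclear receptors that sit on DNA as partners of retinoid X receptors and switch from repression to activation of nearby genes when they bind retinoic acid. In vertebrate embryos retinoic acid patterns the hindbrain and trunk along the head-to-tail axis, and the cell's own supply is set by enzymes that make and break it down. Receptor subtypes differ in where they are expressed, and per the labels the low and the high dose of this compound differ in the subtypes they activate.

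Members were chosen from the values themselves. A gene model entered if its symbol cell was empty or a dash and its mean over the 15 libraries was at least 1 FPKM (fragments scaled to the length of the gene model and to the library's total). The difference of log2(group mean FPKM + 1) from vehicle had to be under 0.2 in size at 10 nM and at least 1 at 1 µM. All 5 libraries at 1 µM also had to lie above, or all below, the other 10. Every contrast between the groups was thus used in the choice, and the differences below are a description, with no test. The filter left 13192 gene models, 12791 of them without a symbol. Of those, 911 were higher and 306 lower at 1 µM by at least 1, of which 130 and 55 also met the limit at 10 nM. Over all tested gene models, 7.11% were higher and 2.39% lower by at least 1, and 47.2% met the limit at 10 nM. A further 16 and 15 then dropped out for overlap between libraries, so that the members were 12.5% of the unnamed gene models that rose by that much and 13.1% of those that fell.

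**Figure D1:**
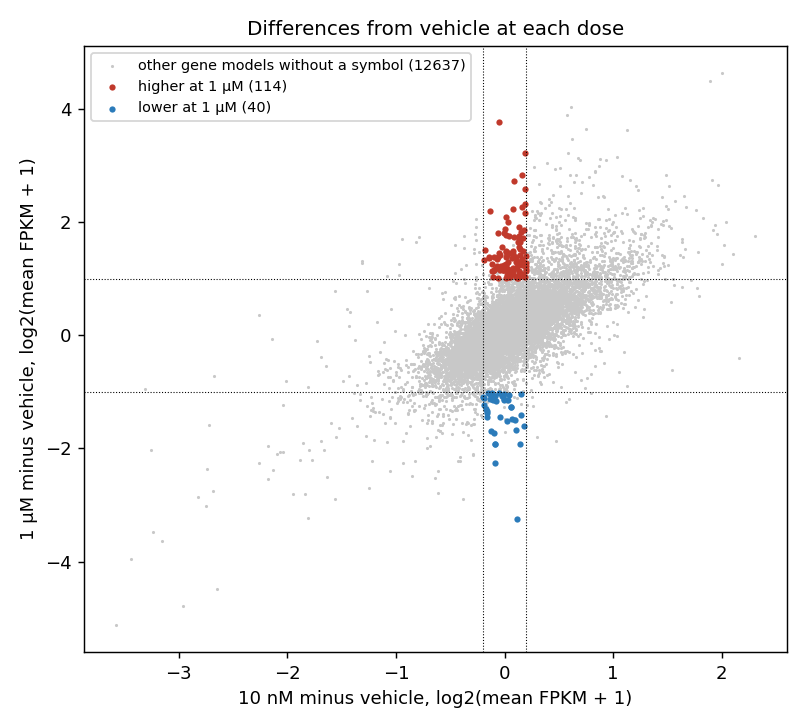
Each point is a gene model without a symbol, placed by its difference from vehicle in log2(mean FPKM + 1) at 10 nM (x axis) and at 1 µM (y axis), with dotted lines at the limits of 0.2 and 1. The 114 higher (red) and 40 lower (blue) members fill the narrow columns above and below the grey cloud, and the higher side is the fuller.

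Gene names are not paired with these identifiers in the deposited table, and 0 of the 45099 identifiers matched the RefSeq table of Xenopus_laevis_v10.1 genes. No role can therefore be given to any member. Among the 12791 unnamed gene models tested, 31.2% had a dash rather than an empty cell, and the share was 34.2% (39) in the higher members and 25.0% (10) in the lower members.

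Sequencing depth differed between the groups. Relative to the deepest library it ran from 0.535 to 1 at 1 µM, from 0.259 to 0.646 at 10 nM and from 0.312 to 0.833 with vehicle, as read from the step sizes of the FPKM values. The most abundant gene model held 23.6 to 45.5% of the summed FPKM in vehicle libraries. Its share was 17.6 to 32.9% at 10 nM and 14.5 to 26.2% at 1 µM. The part of depth, or of this share, in the results was not tested. Of 13 tissue markers listed, 5 had a row that carried their symbol, and all 5 were above the filter. Those for neural progenitors (sox2, 3.30 FPKM with vehicle), neural crest (sox9, 2.70), muscle (chrnd, 7.81), epidermis (grhl3, 18.9) and placodes (eya1, 2.25) were all present. Of the 45099 gene models, 20686 had a dash and 23090 an empty cell for a symbol. The other listed markers may thus be among the gene models without a symbol, members included. At 1 µM, sox9 was called higher by limma with Benjamini-Hochberg adjustment (5.86 FPKM), and sox2, chrnd, grhl3 and eya1 were called lower (1.66, 3.30, 15.1 and 1.76 FPKM). At 10 nM, grhl3 was called higher (23.7 FPKM) and sox2 lower (0.927 FPKM). The part of these tissue markers in the members' values was not tested. In whole-embryo RNA, fewer cells of a type and less RNA per cell cannot be told apart.

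The 114 higher members had a median group level of 1.21 FPKM with vehicle, 1.33 FPKM at 10 nM and 4.75 FPKM at 1 µM. The ratio of means, 1 µM over vehicle, ran from 2.15 to 88.9 with a median of 3.76, and it was at least 3 in 88 members and at least 10 in 12. Many started from little: 46 had a vehicle mean under 1 FPKM and 22 a mean under 0.5 FPKM. Those 22 passed the filter at a mean of 1 FPKM only through their values at 1 µM. So did every other higher member whose vehicle and 10 nM means were both under 1 FPKM. Only 2 stood at 10 FPKM or more with vehicle, whereas 23 did so at 1 µM. On the log2 scale, 11 of the 114 differed from vehicle by at least 2 and 30 by at least 1.5.

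The largest difference was that of Xelaev18019361m.g. Its 5 libraries at 1 µM held 10.7, 35.3, 47.8, 12.7 and 19.4 FPKM in replicate order. The vehicle libraries held 0.546, 0.625, 1.31, 1.58 and 0.585 FPKM and the 10 nM libraries 0.573, 1.5, 0.984, 0.630 and 0.603 FPKM. The 10 nM and vehicle values covered the same range, and the lowest value at 1 µM was 6.80 times the highest of either. The rise was 27.1-fold (25.2 ± 15.9 against 0.929 ± 0.480 FPKM, SD, n = 5 each), with a wide spread at 1 µM.

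Of the 6 largest, Xelaev18043836m.g had the lowest level without the high dose. It held 9.94, 8.08, 9.52, 9.21 and 9.88 FPKM at 1 µM, against 0, 0, 0.298, 0.0924 and 0.134 FPKM with vehicle. At 10 nM it held 0.145, 0.573, 0.0936, 0.320 and 0.172 FPKM. The means of 0.105 and 0.261 FPKM differed 2.48-fold between vehicle and 10 nM, a difference that the added 1 FPKM shrinks to 0.19 on the log2 scale, and the libraries of these groups overlapped. These values rest on 0 to 6 recovered reads per vehicle library and 2 to 8 per 10 nM library, against 266 to 530 at 1 µM. In this gene model nearly all recovered reads were even numbers, so the true count may be a fraction of those given. The same held for 27 of the higher and 7 of the lower members, in which at least 80% of the recovered reads were even. Other common factors were not checked, so the recovered reads of further members may also be too many.

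Xelaev18034772m.g was the steadiest of the 6 largest with vehicle. Its vehicle libraries held 1.40, 1.45, 1.5, 1.26 and 1.29 FPKM, its 10 nM libraries 1.88, 2.55, 1.21, 1.12 and 1.57 FPKM, and its 1 µM libraries 16.6, 16.7, 16.9, 15.8 and 13.6 FPKM. All of the 1 µM values stood above every other, the lowest at 5.34 times the highest of the rest. With 70 to 166 recovered reads per vehicle library and 1301 to 2576 at 1 µM, it had the most of the 6 in both. It was also among the higher members that met the limit for even reads given above. Its true count may therefore be a fraction of those given, and which of the 6 was best supported cannot be said.

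The next 3 by size were Xelaev18002723m.g, Xelaev18019895m.g and Xelaev18037492m.g. The first held 11.6, 7.20, 6.88, 7.65 and 12 FPKM at 1 µM, 0.277 to 1.09 FPKM at 10 nM and 0 to 1.58 FPKM with vehicle, on at most 4 recovered reads in any library outside 1 µM. Xelaev18019895m.g held 42.4, 26.0, 35.0, 26.6 and 23.6 FPKM at 1 µM, 4.03 to 6.46 FPKM at 10 nM and 2.38 to 6.30 FPKM with vehicle. Xelaev18037492m.g held 17.3, 15.3, 14.3, 11.2 and 11.2 FPKM at 1 µM, 1.42 to 3.26 FPKM at 10 nM and 1.46 to 2.47 FPKM with vehicle. In each of the 3 the 10 nM and vehicle ranges overlapped and the 1 µM libraries stood apart by 3.44-fold or more. The highest level among all the higher members was that of Xelaev18010890m.g, at 44.5, 38.6, 43.0, 44.2 and 44.8 FPKM. Its vehicle libraries ran from 3.53 to 17.6 FPKM and its 10 nM libraries from 7.80 to 9.87 FPKM.

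A fall of at least 1 on the log2(FPKM + 1) scale needs a vehicle mean of at least 1 FPKM. The rule itself thus shaped the starting levels of the 40 lower members. Their median group level was 5.86 FPKM with vehicle, 5.81 FPKM at 10 nM and 1.54 FPKM at 1 µM, and 16 had a vehicle mean of at least 10 FPKM. The ratio of vehicle over 1 µM ran from 2.06 to 95.9 with a median of 3.21. It was at least 3 in 25 members and at least 10 in 6. At 1 µM, 14 members were under 1 FPKM and 3 under 0.1 FPKM.

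Xelaev18045886m.g had the largest decrease on the log2 scale. It held 29.6, 22.9, 23.1, 24.6 and 25.9 FPKM with vehicle and 31.3, 31.2, 27.6, 27.7 and 19.0 FPKM at 10 nM, but 2.10, 2.17, 1.05, 1.29 and 2.27 FPKM at 1 µM. Vehicle and 10 nM libraries overlapped, and their lowest value was 8.39 times the highest at 1 µM. The means were 25.2 ± 2.72, 27.4 ± 4.98 and 1.78 ± 0.563 FPKM (SD, n = 5 each), a 14.2-fold decrease at 1 µM.

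In 3 members hardly any transcript was left at 1 µM. Xelaev18023692m.g went from 3.97, 5.85, 3.27, 2.93 and 3.89 FPKM with vehicle to 0, 0.0228, 0.0570, 0.128 and 0 FPKM at 1 µM, and its 10 nM libraries held 2.59 to 4.47 FPKM. Xelaev18025692m.g went from 3.51, 2.83, 3.21, 3.03 and 2.52 FPKM with vehicle to 0.0647, 0.0512, 0.112, 0.0717 and 0.0294 FPKM, with 2.49 to 4.01 FPKM at 10 nM. The lowest value outside 1 µM was 20.3 and 22.2 times the highest at 1 µM in these 2, the widest separations among the lower members. Xelaev18017689m.g held 6.16, 3.20, 1.61, 1.49 and 2.40 FPKM with vehicle, 1.26 to 4.11 FPKM at 10 nM, and 0.101, 0, 0, 0 and 0.115 FPKM at 1 µM. It rests on 70 recovered reads in all with vehicle and 2 at 1 µM, a depth-adjusted ratio of 54.9 with an exact 95% interval of 14.6 to 462 for counting error only.

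Xelaev18019217m.g and Xelaev18029415m.g completed the 6 largest decreases. The former held 23.9, 22.2, 11.6, 19.2 and 22.9 FPKM with vehicle, 15.7 to 21.5 FPKM at 10 nM and 3.30, 4.88, 5.38, 5.25 and 3.70 FPKM at 1 µM. The latter held 3.46, 6.03, 5.99, 5.72 and 5.65 FPKM with vehicle, 4.31 to 5.53 FPKM at 10 nM and 0.594, 0.940, 1.32, 0.659 and 1.08 FPKM at 1 µM. The groups at 10 nM and with vehicle overlapped in both. The most abundant lower member, Xelaev18045645m.g, was also the one with the least room between groups. Its highest 1 µM library, at 89.0 FPKM, lay just under the lowest vehicle library at 89.3 FPKM, with means of 150 ± 54.7, 137 ± 37.4 and 73.0 ± 12.8 FPKM for vehicle, 10 nM and 1 µM (SD, n = 5 each).

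**Figure D2:**
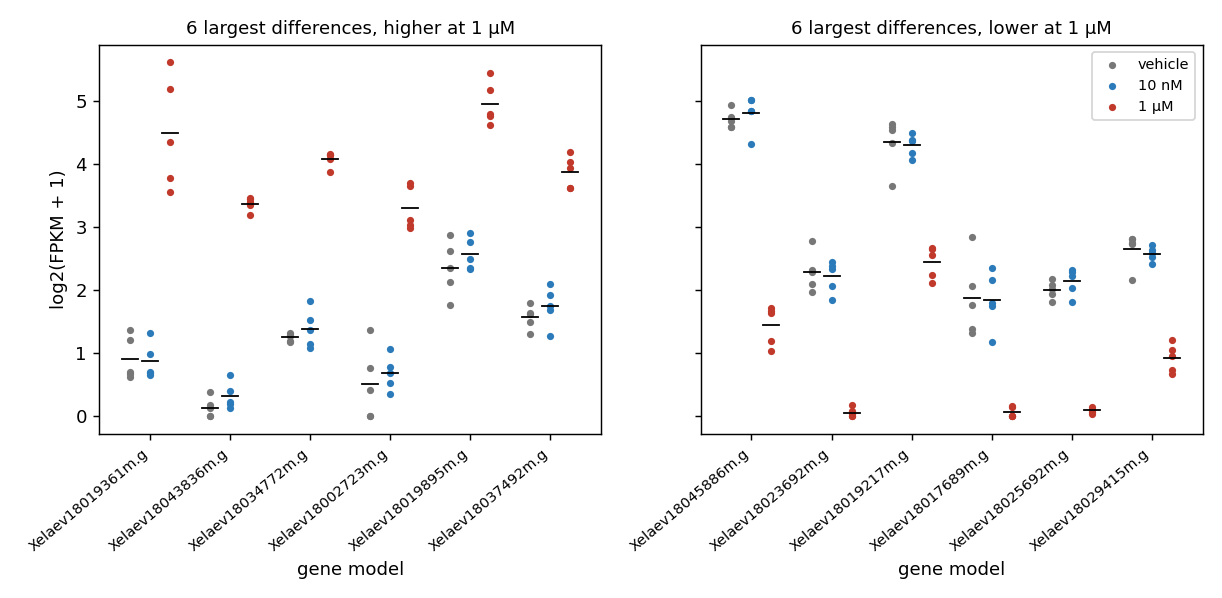
Points are single libraries in log2(FPKM + 1) for the 6 largest differences in each direction, with vehicle in grey, 10 nM in blue and 1 µM in red, and black bars at the mean of 5 libraries. In each gene model the grey and blue points share a range and the red points stand apart, tightly for Xelaev18043836m.g and loosely for Xelaev18019361m.g.

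Room between the groups varied widely among members. The lowest library at 1 µM was at least 2 times the highest other library in 56 of the 114 higher members (median 1.99, highest 16.9), and under 1.2 times in 4. For the lower members the matching ratio was at least 2 in 15 of 40 (median 1.74) and under 1.2 in 4. Libraries at 1 µM all above the other 10 were found for 9.13% of all tested gene models, and all below for 4.28%. By limma, with Benjamini-Hochberg adjustment, all 114 higher members were called at 1 µM against vehicle (28.9% of all tested gene models were called higher) and all 40 lower members (16.6% called lower). The same held for 1 µM against 10 nM, with a background of 23.8%, of which 16.1% higher and 7.72% lower. Of all calls at 1 µM against vehicle, 63.5% were higher, and 38.6% when each library was rescaled to the same sum, leaving out its most abundant gene model. The rule used these contrasts, so the counts carry no information of their own.

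At 10 nM against vehicle, limma called 0 of the 154 members, where 23.3% of all tested gene models were called (13.0% higher, 10.3% lower), and the rule had limited that difference too. An unadjusted p under 0.05 was reached by 2 members and by 36.8% of all tested gene models. The 2, singled out after their values were seen, were the higher member Xelaev18023502m.g and the lower member Xelaev18043105m.g, and both stood above vehicle at 10 nM, by 0.19 and 0.18 on limma's log2 scale. With voom on the recovered reads 3 of 112 higher members and 0 of 36 lower members were called at 10 nM, and 23.8% of all gene models it tested. These 3, named after their values were seen, had means over vehicle at 10 nM of 2.16 in Xelaev18043533m.g, 1.55 in Xelaev18006224m.g and 1.48 in Xelaev18025883m.g, where voom's adjusted p was 0.0393, 0.0147 and 0.0163. Their levels at both were low, 0.102 ± 0.0561 and 0.220 ± 0.0679 FPKM in the first (SD, n = 5 each). That gene model, Xelaev18043533m.g, also met the limit for even reads given above, so voom may have been given too many reads for it. The limit of 0.2 bounds the measured difference and not its error. The 95% interval of limma's 10 nM difference reached 0.5 or more upward in 20 of the 114 higher members, and -0.5 or less in 5 of the 40 lower members. It lay within 0.5 on both sides in 89 and 33. For the gene model with the largest rise, Xelaev18019361m.g, the limma difference at 10 nM was -0.04 with an interval from -0.74 to 0.65, and for Xelaev18034772m.g it was 0.14, from -0.12 to 0.39.

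As ratios of means, the members were less uniform at 10 nM than the log2 limit implies. The ratio of 10 nM over vehicle ran from 0.682 to 3.58 in the higher members (median 1.10) and from 0.797 to 1.18 in the lower members (median 0.939). In 7 higher members it was at least 1.5, and the highest vehicle mean among those 7 was 0.360 FPKM. Differences on the log2(FPKM + 1) scale had medians of 0.08 in the higher and -0.08 in the lower members. The doses share their vehicle libraries, so the values are only set side by side.

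The limits cut through a continuous range of values. The higher members nearest the limit of 1 had differences from vehicle of 1.014 (Xelaev18007404m.g) and 1.017 (Xelaev18017713m.g), and those of the unnamed gene models just outside it were both 0.999 (Xelaev18044801m.g and Xelaev18002804m.g). The lower members nearest it had differences of -1.015 (Xelaev18026748m.g) and -1.019 (Xelaev18031998m.g), with -0.997 and -0.992 just outside. At the limit of 0.2, the 10 nM differences were 0.196 and 0.198 inside and -0.202 and 0.204 outside for the higher direction. For the lower direction they were -0.189 and -0.199 inside and -0.213 and -0.217 outside.

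Library by library, the members as a whole separated 1 µM from the rest, which the rule had required of each member. The median member of the higher set held 4.64 to 5.19 FPKM in the 1 µM libraries, 1.16 to 1.65 FPKM in the 10 nM libraries and 1.11 to 1.45 FPKM in the vehicle libraries. For the lower set the ranges were 1.47 to 1.64, 5.41 to 6.88 and 5.57 to 7.13 FPKM in the same order. Within a group, the higher members had a median coefficient of variation of 26.4% with vehicle, 25.6% at 10 nM and 14.3% at 1 µM, against 20.4%, 19.6% and 15.8% for all tested gene models. For the lower members it was 18.8%, 17.4% and 22.4%. In both sets the wider spread was thus at the lower level. The part of read number, or of the rule, in this spread was not tested. Values of the higher members rested on a median of 302.5 reads per library at 1 µM, 39 at 10 nM and 40 with vehicle. For the lower members the medians were 89.5, 226.5 and 270 in the same order. With vehicle, 16.1% of the higher members' values were under 10 reads, and 9.98% over all tested gene models.

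Some libraries stood high or low for many members at once. Vehicle replicate 3 was the lowest of its group in 38 of the 114 higher and 20 of the 40 lower members. Its median deviation from the group mean was -0.062 and -0.193 on the log2 scale, and -0.121 over all tested gene models. The most abundant gene model took 45.5% of the summed FPKM in that library. At 1 µM, replicates 1 and 3 were the highest for 33 and 31 of the higher members, with median deviations of 0.053 and 0.050 against 0.041 and 0.028 over all tested gene models.

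**Figure D3:**
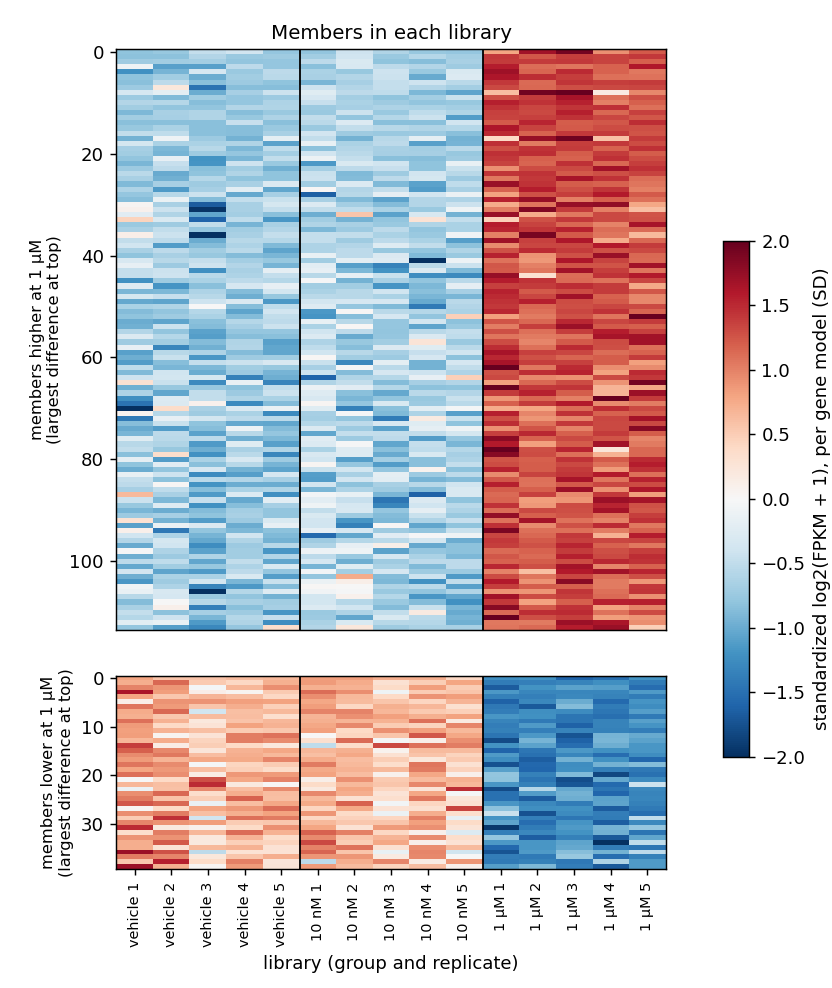
Rows are the 114 higher (top) and 40 lower (bottom) members, ordered by the size of the 1 µM difference, and columns are the 15 libraries. Colour is each gene model's log2(FPKM + 1) standardized over the 15 libraries. In both sets it changes at the border of the 1 µM block, which the rule had required.

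A few members varied widely between embryo pools at 1 µM. The widest coefficients of variation at 1 µM, among members at 1 FPKM or more there, were 68.4% for Xelaev18002187m.g, 63.1% for Xelaev18019361m.g and 54.4% for Xelaev18002190m.g, singled out after their values were seen. Xelaev18002187m.g held 9.47, 29.1, 35.0, 6.38 and 12.9 FPKM in the 1 µM replicates, and Xelaev18002190m.g held 1.45, 5.01, 5.89, 1.78 and 3.77 FPKM. In all 3, replicates 2 and 3 were the highest and replicates 1 and 4 the lowest. Xelaev18002187m.g and Xelaev18002190m.g also lie close together in number. Over all higher members, the highest 1 µM value fell in replicate 3 for 31, in replicate 1 for 33 and in replicate 2 for only 11.

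Identifiers of some members lay close together in number. Counting members of the same direction whose numbers differ by at most 10, 14 of the 114 higher and 4 of the 40 lower members had such a companion. Among tested unnamed gene models that near to a higher member, 2.16% were higher members, and 0.891% over all tested unnamed gene models. For lower members the shares were 1.75% and 0.313%. Among nearby gene models that were not members, 11% (70 of 635) were higher at 1 µM by at least 1, against 6.29% of all such gene models, and 4.46% (10 of 224) near a lower member were lower, against 2.09%. These shares were not tested, and the sources used here do not say what the order of the identifiers stands for. Reads without strand information cannot be told apart between overlapping gene models, nor between near-identical gene copies.

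Xelaev18043224m.g to Xelaev18043231m.g, 8 consecutive identifiers, held 4 higher members. The members Xelaev18043224m.g, Xelaev18043227m.g, Xelaev18043228m.g and Xelaev18043231m.g stood at 4.53 ± 1.11, 3.83 ± 1.14, 36.5 ± 4.52 and 8.11 ± 1.35 FPKM at 1 µM (SD, n = 5). Their vehicle levels were 1.00 ± 0.977, 1.01 ± 0.712, 14.2 ± 1.66 and 2.90 ± 0.779 FPKM, and their 10 nM levels 1.02 ± 0.688, 0.855 ± 0.127, 14.6 ± 3.03 and 2.88 ± 1.05 FPKM. Between them lay gene models that were excluded because their 10 nM difference was past the limit of 0.2. Xelaev18043225m.g went from 1.21 ± 0.180 to 3.14 ± 0.449 and 11.2 ± 1.33 FPKM, and Xelaev18043226m.g from 1.94 ± 1.10 to 2.97 ± 0.374 and 14 ± 1.07 FPKM. Xelaev18043229m.g went from 4.82 ± 0.633 to 6.81 ± 1.68 and 12.9 ± 2.19 FPKM. The 10 nM difference was 0.91 in Xelaev18043225m.g, whose vehicle and 10 nM libraries did not overlap. It was 0.43 in Xelaev18043226m.g and in Xelaev18043229m.g, whose libraries did overlap. Levels of the eighth, Xelaev18043230m.g, overlapped between the groups, and the 3 tabulated gene models on either side of the run were all under the filter.

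A second run had fewer members but a similar mixture. Xelaev18045988m.g and Xelaev18045989m.g, both members, went from 0.758 ± 0.355 and 3.76 ± 0.584 FPKM with vehicle to 2.94 ± 0.421 and 9.15 ± 0.674 FPKM at 1 µM (SD, n = 5). At 10 nM they held 0.752 ± 0.246 and 4.32 ± 0.929 FPKM. Of the 6 tested gene models next to them in number, 5 had all of their 1 µM libraries above the others and higher 10 nM means than vehicle. Among those, Xelaev18045985m.g went from 1.90 ± 0.191 to 4.10 ± 0.790 and 17.4 ± 1.69 FPKM. In this run, members and gene models outside the limit of 0.2 at 10 nM had neighbouring identifiers. The 10 nM difference was 0.16 in the member Xelaev18045989m.g and 0.28 in Xelaev18045986m.g, which is not a member. Vehicle and 10 nM libraries overlapped in both, so the limit alone divides them.

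**Figure D4:**
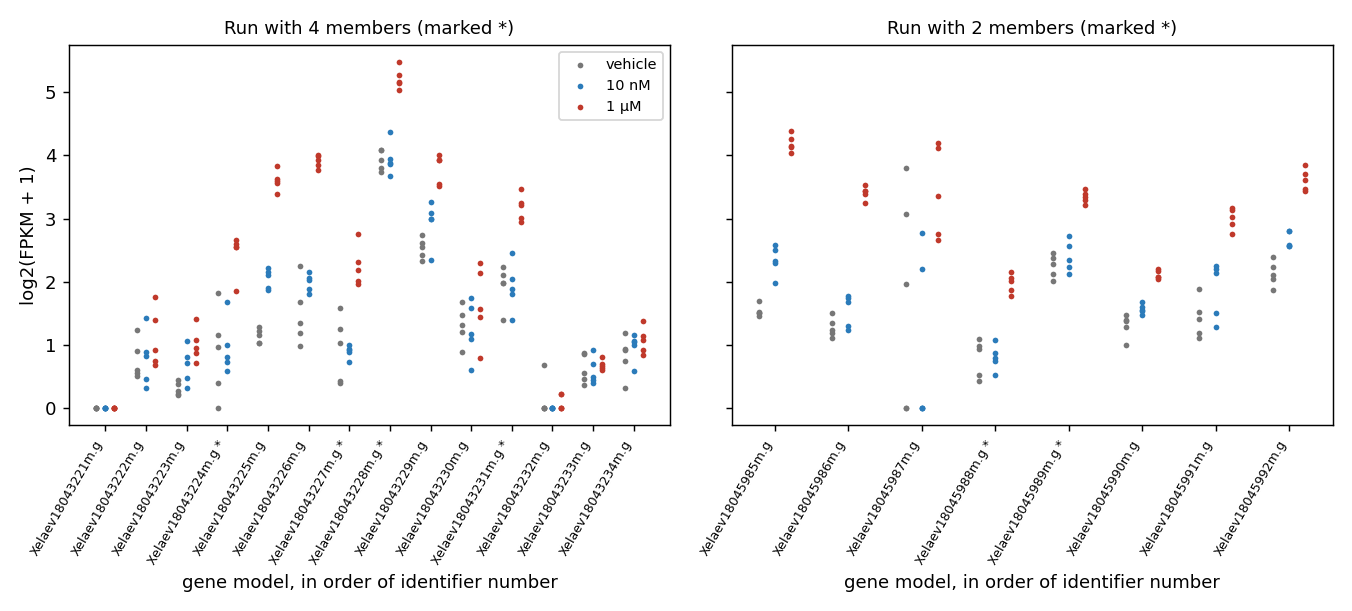
Points are single libraries in log2(FPKM + 1) for gene models in order of identifier number, with vehicle in grey, 10 nM in blue and 1 µM in red, and members marked with an asterisk. In the run with 4 members (left), red points stand above grey and blue ones in 7 of 8 consecutive gene models, and blue points also rise above grey ones in Xelaev18043225m.g. In the run with 2 members (right), red points stand highest except for Xelaev18045987m.g, whose libraries overlap.

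Runs of lower members, and of both directions, also occurred. Xelaev18047225m.g and Xelaev18047227m.g fell from 13.1 ± 0.892 and 30.3 ± 4.34 FPKM with vehicle to 5.57 ± 1.31 and 12.3 ± 2.39 FPKM at 1 µM (SD, n = 5). At 10 nM they held 11.4 ± 1.76 and 26.5 ± 4.02 FPKM, differences of -0.19 and -0.18. Between them, Xelaev18047226m.g, not a member, went from 7.39 ± 1.48 to 4.51 ± 0.962 and 2.40 ± 0.787 FPKM. Its 10 nM difference was -0.61, and its vehicle and 10 nM libraries did not overlap. Xelaev18045644m.g was higher at 1 µM, at 12.1 ± 1.04 against 2.97 ± 0.731 FPKM with vehicle, while the next identifier, Xelaev18045645m.g, was the abundant lower member described above. In a run of 8 numbers, Xelaev18019210m.g was higher at 1 µM and both Xelaev18019216m.g and Xelaev18019217m.g were lower.

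Gene models with a symbol are few in the table. All genes given here by symbol, those most like the members included, had identifiers from Xelaev18000122m.g to Xelaev18003929m.g. Identifiers of members ran as far as Xelaev18047630m.g. How symbols are spread over the rest of the table was not examined, so lacking one need not be a trait of the gene. Of the 401 tested gene models with an entry in the symbol cell, 314 of which hold a usable gene symbol, 2 met the same numeric conditions, a share of 0.499% against 1.2% among the 12791 without a symbol, and the difference between these shares was not tested. The higher one carries a placeholder, Xetrov90027339m, and went from 4.76 ± 0.913 to 5.31 ± 1.10 and 26.1 ± 2.15 FPKM. The lower one was chrnd, the delta subunit of the muscle acetylcholine receptor, at 10.9, 6.87, 7.76, 7.05 and 6.44 FPKM with vehicle, 7.51, 7.02, 6.4, 6.79 and 6.64 FPKM at 10 nM and 3.42, 2.66, 3.81, 2.49 and 4.10 FPKM at 1 µM. All 5 values at 1 µM were below every other, and the vehicle and 10 nM ranges overlapped.

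Named genes whose profile over the 15 libraries was most like the mean of the standardized higher members were dnm1, ctage5, usp20, fam129b and fnbp1, with Pearson correlations of 0.975, 0.963, 0.957, 0.944 and 0.937. The median member had 0.954 with that mean. The libraries fall into dose groups, and these values describe that shared step, with no p. The gene dnm1, for a dynamin of endocytosis, stood above vehicle at 10 nM too, by 0.35 on the log2(mean FPKM + 1) scale. The gene ctage5, which acts in export of large cargo from the endoplasmic reticulum, went from 2.07 ± 0.316 and 2.23 ± 0.191 to 4.81 ± 0.510 FPKM (vehicle, 10 nM, 1 µM; SD, n = 5). The deubiquitinase gene usp20 and fnbp1, for a membrane-bending protein, have consecutive identifiers in the table, Xelaev18002785m.g and Xelaev18002786m.g. Their 10 nM differences were 0.26, past the limit of 0.2, and -0.1. For the lower members the most alike were rdh10, smarca5, kcnj2, chrnd and tll1-like.1, at 0.941, 0.939, 0.936, 0.934 and 0.919. Of these, smarca5, a chromatin remodelling ATPase, and kcnj2, a potassium channel, differed from vehicle at 10 nM by -0.02 and -0.04 and at 1 µM by -0.57 and -0.80. The 10 nM difference was -0.16 in chrnd, and past the limit of 0.2 in rdh10 (-0.67) and tll1-like.1 (-0.32).

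Of 28 retinoid pathway genes listed, 2 had a row that carried their symbol, rdh10 and nr2f6, and neither met the rule. The others may be among the gene models without a symbol, members included. The retinol dehydrogenase gene rdh10, which acts in retinoic acid synthesis, was lower at both doses, at 22.9 ± 3.48, 14 ± 2.13 and 5.36 ± 0.336 FPKM for vehicle, 10 nM and 1 µM (SD, n = 5 each). The orphan receptor gene nr2f6 was at 2.45 ± 0.584, 2.54 ± 0.463 and 4.14 ± 0.302 FPKM, a difference at 1 µM of 0.57 that is below the limit of 1.

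The reverse pattern was rare. With the doses exchanged in the rule, 1 unnamed gene model qualified, Xelaev18043421m.g, at 3.34 ± 0.523 FPKM with vehicle, 1.15 ± 0.448 at 10 nM and 3.58 ± 0.996 at 1 µM (SD, n = 5). The count was 0 to 4 when single libraries were left out (0 without vehicle replicate 1 or 10 nM replicate 2, and 4 without 10 nM replicate 4). It compares with 154 that moved at 1 µM, but the doses also differed in how many gene models moved at all, as the 23.3% and 45.6% called by limma at 10 nM and 1 µM show.

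Lengths relative to the median tested gene model, recovered from the FPKM steps, had a median of 1.09 in the 112 higher members with a value (interquartile range 0.450 to 2.33) and 0.939 in 36 lower members (0.497 to 1.81). Over all tested gene models the interquartile range was 0.436 to 2.29. Any common factor in a gene model's recovered reads is carried into its length. Membership itself was sensitive to single libraries. When each of the 15 libraries was left out in turn, 48 of the 114 higher and 13 of the 40 lower members met the rule every time, and leaving out the 5 libraries under 0.4 of the deepest kept 79 and 19. Those 5 were vehicle replicates 1, 2 and 3 and 10 nM replicates 2 and 3, so these groups also became smaller. Under all of 3 other scalings (median-of-ratios, quantile and a common total), 71 of the 114 higher and 17 of the 40 lower members still met the rule, and the common total by itself kept 74 and 19. The difference at 1 µM was at least 0.80 upward in every higher member and 1.07 downward in every lower member under those 3 scalings.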

How the data were processed

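RNA from pools of 5 whole Xenopus laevis embryos was amplified and sequenced as 50 nt single, non-directional reads on a SOLiD 5500xl, per the labels' protocols. The authors deposited one table of FPKM values for 45099 gene models in 15 libraries, 5 per group. The submitters' processing notes name TopHat, Bowtie and Cufflinks, with version and genome build not given in the sources used here. FPKM is relative to the library total, so a change in a very abundant transcript moves every other value. The deposited FPKM values were taken to log2(FPKM + 1), which understates changes of low gene models, and gene models with a mean under 1 FPKM over the 15 libraries were left out.

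All 3 groups were fitted together with limma 3.58.1 in R 4.3.3, with a trend in the variance, and p-values were adjusted by Benjamini-Hochberg over 13192 gene models at a threshold of 0.05. The code was tested on simulated data. FPKM values of a gene model in a library were taken to be whole multiples of the value of 1 read. Whole reads (within 0.03) were recovered for 99.1% of 34147 gene models with 2 or more values above 0, and 98.0% of those tested. Many multiples were tried, so a gene model with few values above 0 can fit by accident, and the 99.1% is no test of the recovery. The recovery gave relative depths, and voom was run on the recovered reads as an alternative. Depth ratios taken directly between pairs of libraries differed from the linked depths, before refinement, by up to 0.69 in natural log. Depth in absolute reads was not given, and recovered reads in tested gene models came to 2434373 to 10043596 per library. Counting intervals cover counting error only. No 2 libraries of a group were identical, and each of the 30 pairs differed by more than sampling noise, with a chi-square of 5.65 to 19.67 per degree of freedom. Other tools were Python 3.11.15, numpy 2.4.6, pandas 2.3.3, scipy 1.17.1 and matplotlib 3.10.9.

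The members and gene lists were chosen with earlier results of these data known. Named by rule were the 6 members with the largest 1 µM difference and the most abundant member in each direction, those next to each limit, gene models with a symbol that met the same conditions, the 5 named genes most alike by correlation, and listed retinoid genes and tissue markers. Members in runs of neighbouring identifiers, those of widest spread, those called by voom and the pair with like recovered reads were chosen after their values were seen. Alternatives covered the pseudocount, the filter, the scaling, both limits, shallow libraries, each library left out and a replicate block. No sequences are shown, since none could be tied to these identifiers.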

Additional observations from a re-analysis of the deposited data

Results flagged for a closer look

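In groups of 5 libraries, 4 of 90 groups examined held a library far from the others by Dixon's criterion, which chance gives in about 1 of 20 groups. The lower member Xelaev18029415m.g had 3.46 FPKM in vehicle replicate 1, below the 5.65 to 6.03 FPKM of the other vehicle libraries. The higher member Xelaev18010890m.g had 17.6 FPKM in vehicle replicate 2, above the 3.53 to 7.37 FPKM of the others, and still below its lowest value at 1 µM, 38.6 FPKM. The placeholder Xetrov90027339m had 3.19 FPKM in vehicle replicate 3, below the others at 4.87 to 5.42 FPKM. The orphan receptor gene nr2f6 had 4.66 FPKM in 1 µM replicate 4, above the others at 3.88 to 4.10 FPKM.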

How the results depend on the processing

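Against 114 higher and 40 lower members, a pseudocount of 0.1 gave 148 and 78, one of 5 gave 43 and 6, and a filter at 5 FPKM gave 28 and 19. Only 65 and 36 of those with a pseudocount of 0.1 were members of the full set, and 16 and 6 of those with one of 5. A limit at 10 nM of 0.1 gave 54 and 19, and one of 0.3 gave 175 and 63. A limit at 1 µM of 0.8 gave 212 and 78, and one of 1.5 gave 30 and 10. Median-of-ratios scaling gave 93 and 57, quantile normalization 90 and 47, and a common total 101 and 39. The excess of higher over lower members was thus smaller with the first 2 of these scalings. Leaving out 1 library gave 108 to 125 and 33 to 45, of which 93 to 105 and 30 to 40 were members of the full set. The reverse pattern, 1 gene model, came to 3 with a pseudocount of 0.1, without the libraries under 0.4 of the deepest or with a limit of 0.8, and to 0 with a pseudocount of 5, a filter at 5 FPKM or a limit of 1.5. With 1 library left out it was 0 to 4. Gene models with a symbol, 2, came to 7 with a pseudocount of 0.1, 6 with a limit of 0.8 and 4 without a filter. They came to 1 with a pseudocount of 5, quantile normalization, a common total or a limit of 1.5, to 0 with a limit of 0.1, and to 1 to 3 with 1 library left out (1 without vehicle replicate 1, 2 or 5 or 1 µM replicate 4). Where a limit, filter or pseudocount was moved, the rule itself was changed; elsewhere the cause was not tested.

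At 1 µM against vehicle, 10 nM against vehicle and 1 µM against 10 nM, limma called 6009, 3074 and 3136 gene models. A filter at 5 FPKM, which tested fewer gene models, gave 2250, 1560 and 1047. Without the 5 shallow libraries, 646 were called at 10 nM, with only vehicle replicates 4 and 5 and 10 nM replicates 1, 4 and 5 left. The part of depth and of group size in this count was not tested. With 1 library left out the ranges were 5337 to 6045, 2512 to 3092 and 2535 to 3323. With a replicate block the counts were 5966, 2933 and 3051. Same-numbered libraries correlated at -0.11 to 0.114 in their deviations from the group means, so the numbers were not taken as pairs. The share of calls that were higher, 63.5%, 55.8% and 67.5%, was 51.6%, 54.9% and 49.8% with median-of-ratios scaling, 45.9%, 46.5% and 48.1% with quantile normalization, 38.6%, 27.5% and 54.8% with a common total, and 50.4%, 58.0% and 47.3% with voom. The median of all tested gene models at 1 µM minus vehicle was 0.08, and -0.103 with a common total. At 10 nM minus vehicle the median was 0.004, and -0.117 with a common total. It was 0.007 with median-of-ratios scaling and -0.018 with quantile normalization. The differences held to the limit at 10 nM thus also shifted with the scaling, most with a common total. Of the 14 named members, none changed sign at 1 µM under any alternative run, and 22 values moved beyond the spread between libraries while 300 did not. Over both doses, 11 values moved with a pseudocount of 0.1, 12 with one of 5 and 3 without the shallow libraries. No other alternative moved any. At 10 nM, where no difference was called, 17 of 322 values in 7 members changed sign, to between -0.10 and 0.43.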
